A study of Mus musculus with 4 samples.

Results

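The Smad motifs are the entries of a table of motif accessibility whose transcription factor symbol starts with Smad and a number. There were 19 such entries among 1346, chosen by name without use of their scores, and they carried 6 symbols (Smad1, Smad2, Smad3, Smad4, Smad5 and Smad9). Several entries repeated the scores of another entry in all samples, so the 19 entries held 9 distinct motifs, out of 976 distinct motifs in all. Accessibility was measured by ATAC-seq, in which a transposase tags open stretches of DNA. The cells were regulatory T cells (Tregs), labelled as CD4+ FOXP3+ from the spleen of mice. All mice were wild type and of strain B6.Cg-Foxp3tm2Tch/J, in which GFP follows Foxp3 behind an internal ribosome entry site. Treatment lasted 14 days, with vehicle or with venetoclax, a drug that blocks the survival protein BCL-2, given at 50 mg/kg. Each group had 2 samples. The age of the mice and whether animals were pooled are not stated in the labels. The samples are labelled as biological replicates with no animal named, and p-values therefore rest on the spread between these samples. The cell type could not be checked against marker genes, since the values are scores of sequence motifs and not of genes.

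Smad proteins carry signals of the TGF-beta superfamily from the cell membrane to the nucleus. Smad2 and Smad3 are phosphorylated by the receptors of TGF-beta and activin, and Smad1, Smad5 and Smad9 by those of bone morphogenetic proteins (BMPs). Both kinds pair with Smad4, the common mediator. The complexes bind DNA through MH1 domains of Smads, mostly beside a partner factor. TGF-beta signalling induces Foxp3 in peripheral T cells, and Smad3 binds an enhancer of Foxp3. The inhibitory Smads, Smad6 and Smad7, had no entry here.

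Each value is the authors' chromVAR deviation score. Scores above 0 stand for peaks with the motif being more open in a sample than expected, and scores below 0 for their being less open. The expectation rests on the samples scored together and on matched background peaks, so a sign is not an absolute measure of openness. The score has no unit. It describes sites with a given sequence motif rather than the amount or binding of the protein named, and fewer cells with an open site and a less open site in each cell cannot be told apart in bulk samples. The letters of the motifs were not used here.

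The 9 motifs were grouped by the proteins they are named for. Of the entries, only that of Smad3 ended in the letter D, which in the CIS-BP naming marks a motif determined for that protein. The other 18 entries ended in I, for a motif inferred from a related protein. The Smad3 motif was also entered for Smad2 and Smad9, and is called the Smad3 motif here. A further 2 motifs were shared by Smad2 and Smad9 (Smad2/Smad9 motifs a and b), and 1 was named for Smad2 alone (the Smad2-only motif). Smad1, Smad5 and Smad9 shared 3 motifs, called BMP Smad motifs a, b and c. Smad4 had 2 motifs, a and b. Smad9 was thus entered in 6 motifs that span both arms of the pathway, and a score cannot be assigned to a single Smad protein except by name. No factor other than a Smad had the same scores as any of the 9.

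Of the 9 Smad motifs, 4 (44.4%) were scored lower in both venetoclax samples than in either vehicle sample, and 0 were higher in both. Among all distinct motifs, the groups did not overlap for 48.3%, with venetoclax lower for 30.2% and higher for 18%. The 4 motifs were the Smad3 motif, BMP Smad motifs b and c and Smad4 motif b. No Smad motif passed an adjusted p of 0.05 in limma, a linear model that shares the spread over motifs, and neither did any of the 1346 entries (0%). At an unadjusted p under 0.05, limma gave 18.3% of all entries and 17% of all distinct motifs (11.1% lower and 5.94% higher with venetoclax). Of the 9 Smad motifs it gave 1, BMP Smad motif c, which was lower. Over so few motifs these shares were not tested against the background, and nothing particular to the Smad motifs is read from them. With 2 samples against 2, an exact permutation test of a single motif cannot go below p = 0.333.

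The Smad3 motif had a positive score in both vehicle samples and a negative score in both venetoclax samples. Smad3 is the main DNA-binding effector of TGF-beta. Its scores were 0.45 and 0.30 in vehicle replicates 1 and 2, and -0.45 and -1.29 in venetoclax replicates 1 and 2. The groups did not overlap, and the venetoclax samples lay further from each other than the vehicle samples. The vehicle mean was 0.38 ± 0.11 and the venetoclax mean -0.87 ± 0.60 (SD, n = 2 each). This gave a difference of -1.24 (SE 0.69, 95% interval from -2.69 to 0.20, limma adjusted p = 0.365). Leaving out single samples gave differences between -1.67 and -0.82.

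The other motifs entered for Smad2, the partner of Smad3 in TGF-beta signalling, did not separate the groups. The Smad2-only motif scored -1.32 and -0.62 in the vehicle samples and -1.60 and -0.47 in the venetoclax samples. It was below 0 in every sample, with both venetoclax samples outside the vehicle samples on opposite sides. Its difference was -0.07 (SE 0.71, 95% interval from -1.55 to 1.41, limma adjusted p = 0.961). Smad2/Smad9 motif a scored 1.09 and -1.34 in the vehicle samples and -0.68 and 1.59 in the venetoclax samples. Here the replicates of each group lay on either side of 0, by 2.42 with vehicle and 2.27 with venetoclax, and the 1.59 of venetoclax replicate 2 was the highest Smad score in the data. Smad2/Smad9 motif b had the same 2 samples highest, venetoclax replicate 2 and vehicle replicate 1, with scores of 0.35 and -0.72 in the vehicle samples and -1.21 and 0.62 in the venetoclax samples. The differences were 0.58 (SE 0.85, 95% interval from -1.19 to 2.36) for motif a and -0.11 (SE 0.76, 95% interval from -1.68 to 1.46) for motif b. The intervals leave room for differences of more than 1 score unit in either direction.

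The motifs of Smad1, Smad5 and Smad9, which carry BMP signals, differed among themselves. BMP Smad motif c had the largest difference of the 9. Its scores were 0.32 and 0.68 in the vehicle samples and -1.17 and -0.84 in the venetoclax samples, so the groups lay on either side of 0. The means were 0.50 ± 0.26 and -1.01 ± 0.23 (SD, n = 2 each). This gave a difference of -1.51 (SE 0.69, 95% interval from -2.94 to -0.08, limma unadjusted p = 0.0391, adjusted p = 0.261). This unadjusted call was kept with a trended and robust variance (unadjusted p = 0.012 in limma) and with repeated entries counted once (limma unadjusted p = 0.0338). An ordinary linear model kept it too (unadjusted p = 0.0255). The call was lost after centring (difference -1.25, unadjusted p = 0.072 in limma) and division by the SD (unadjusted p = 0.0686). It was lost after quantile normalization (unadjusted p = 0.0677) and with the replicate number as a block (unadjusted p = 0.0631). It was also lost without vehicle replicate 1 (-1.69), vehicle replicate 2 (-1.33) or venetoclax replicate 1 (-1.35), and kept without venetoclax replicate 2 (-1.68). Motif c was not the only Smad motif under 0.05 in these alternatives. The Smad3 motif was under it with the trended and robust variance (unadjusted p = 0.0383 in limma). Smad4 motif b was under it in the ordinary linear model (unadjusted p = 0.00863). BMP Smad motif b scored 0.39 and 1.04 in the vehicle samples and -0.33 and -0.40 in the venetoclax samples. Its groups also lay on either side of 0, and its difference was -1.08 (SE 0.69, 95% interval from -2.52 to 0.35, limma adjusted p = 0.439). BMP Smad motif a, named for the same 3 proteins, was negative in every sample, at -1.46 and -0.71 in the vehicle samples and -1.16 and -0.45 in the venetoclax samples. The groups overlapped, and the difference was 0.28 (SE 0.70, 95% interval from -1.18 to 1.74, limma adjusted p = 0.851). Within a sample, the score of motif a minus that of motif c was -1.78 and -1.39 in the vehicle samples and 0.02 and 0.39 in the venetoclax samples. The score of motif b minus that of motif c was 0.07 and 0.36 in the vehicle samples and 0.84 and 0.45 in the venetoclax samples.

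The motifs of Smad4, which binds DNA together with the Smads of both arms, had differences of opposite sign. Motif b scored 0.11 and -0.01 in the vehicle samples and -0.90 and -0.79 in the venetoclax samples. It had the closest vehicle replicates of the 9, and its groups did not overlap. Its difference was -0.89 (SE 0.68, 95% interval from -2.31 to 0.53, limma adjusted p = 0.543), and lay between -0.95 and -0.83 when single samples were left out. Its limma SE is wider than its 4 scores alone give, because limma moderates it with the spread of the whole table. Smad4 motif a scored -0.61 and -1.07 in the vehicle samples and -0.65 and 0.08 in the venetoclax samples, so its groups overlapped. Its difference was 0.56 (SE 0.70, 95% interval from -0.89 to 2.00, limma adjusted p = 0.711). Within a sample, the score of motif a minus that of motif b was -0.72 and -1.06 in the vehicle samples and 0.25 and 0.87 in the venetoclax samples, so the order of the motifs was opposite in the groups.

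**Figure D1:**
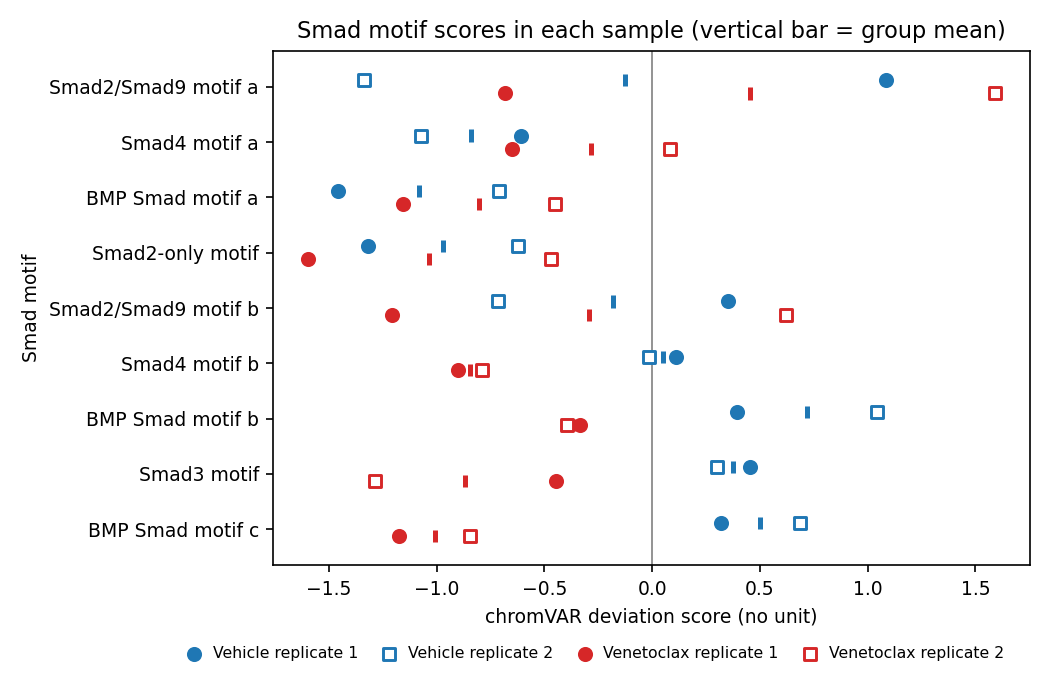
Deviation score (no unit) of each of the 9 Smad motifs in the vehicle (blue) and venetoclax (red) samples, with circles for replicate 1, open squares for replicate 2 and bars for group means. In the lowest 4 rows the venetoclax points lie left of the vehicle points without overlap, and in the other 5 rows the groups overlap.

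The direction of the family as a whole depended on how samples were scaled. The difference was negative for 6 of 9 Smad motifs as deposited and for 4 of 9 after subtraction of each sample's median, against 60.8% negative among all distinct motifs as deposited. The 4 that stayed negative under centring, division by the SD and quantile normalization were the motifs whose groups did not overlap. The median difference was -0.11 over the 9 Smad motifs and -0.23 over all distinct motifs, so relative to all motifs 4 Smad motifs lay below and 5 above. After centring the medians were 0.15 and 0.03. Measured from the median of all motifs, the differences were -1.28 for BMP Smad motif c, -1.01 for the Smad3 motif, -0.85 for BMP Smad motif b and -0.66 for Smad4 motif b, and they ran from 0.12 to 0.81 for the other 5. Without venetoclax replicate 1 the Smad median was 0.50, and without venetoclax replicate 2 it was -0.82, so these samples gave it opposite signs.

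**Figure D2:**
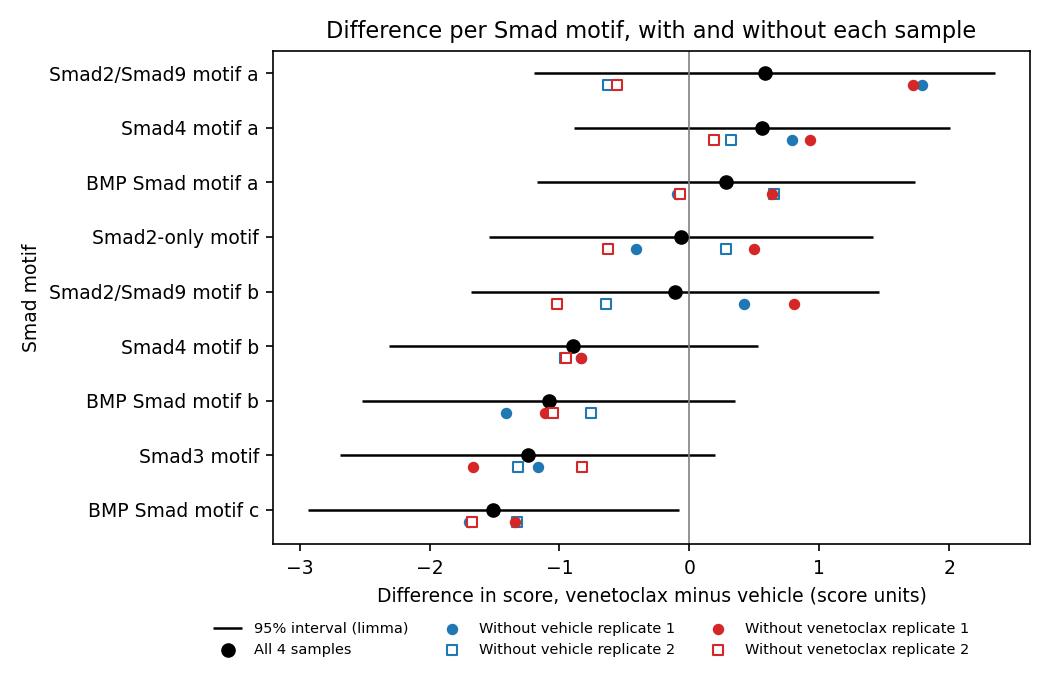
Difference in score, venetoclax minus vehicle (score units), per Smad motif, with all 4 samples (black, with the 95% limma interval) and without each sample in turn (small symbols). The interval of BMP Smad motif c, from -2.94 to -0.08, is the only 1 of the 9 that does not reach 0 with the scores as deposited, though its unadjusted p was 0.068 to 0.072 under the 3 scalings, and the small symbols lie on both sides of 0 for 4 motifs.

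Single samples differed in how they scored the Smad motifs. In venetoclax replicate 1 all 9 Smad scores were negative, from -1.60 to -0.33, while 53.2% of all distinct motifs had a positive score in that sample. In venetoclax replicate 2 only 3 of the 9 were positive, from a sample in which 38.9% of all distinct motifs were positive. Vehicle replicate 1 had 6 positive Smad scores and vehicle replicate 2 had 3, with 56.9% and 55.7% of all distinct motifs positive. The Smad median was 0.32 and -0.62 in the vehicle samples and -0.90 and -0.45 in the venetoclax samples, so the range of the vehicle samples included the value of venetoclax replicate 2. No Smad score was beyond 2 on either side of 0, where 2.05% to 4.92% of all distinct motifs lay, depending on the sample.

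Ranks within a sample do not depend on a shift of the whole sample. The Smad3 motif stood at percentiles 63.6 and 58.5 of the distinct motifs with vehicle and at 28.2 and 12.8 with venetoclax. BMP Smad motif c stood at percentiles 58.4 and 74.5 with vehicle and at 9.1 and 24.7 with venetoclax. The percentiles of BMP Smad motif b were 60.9 and 84.8 in the vehicle samples and 33.2 and 42.1 in the venetoclax samples, and those of Smad4 motif b were 48.7 and 43.6 against 15.5 and 26.5. For these 4 motifs, already named for scores without overlap, the ranks did not overlap either, and 24.4% of all distinct motifs had lower ranks with venetoclax without overlap. BMP Smad motif a reached at most percentile 39.7 and the Smad2-only motif at most 38.7 in any sample, with a lowest value of 3.1 for the Smad2-only motif in venetoclax replicate 1. Smad2/Smad9 motif a ranged from percentile 5.1 in vehicle replicate 2 to 97.3 in venetoclax replicate 2.

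**Figure D3:**
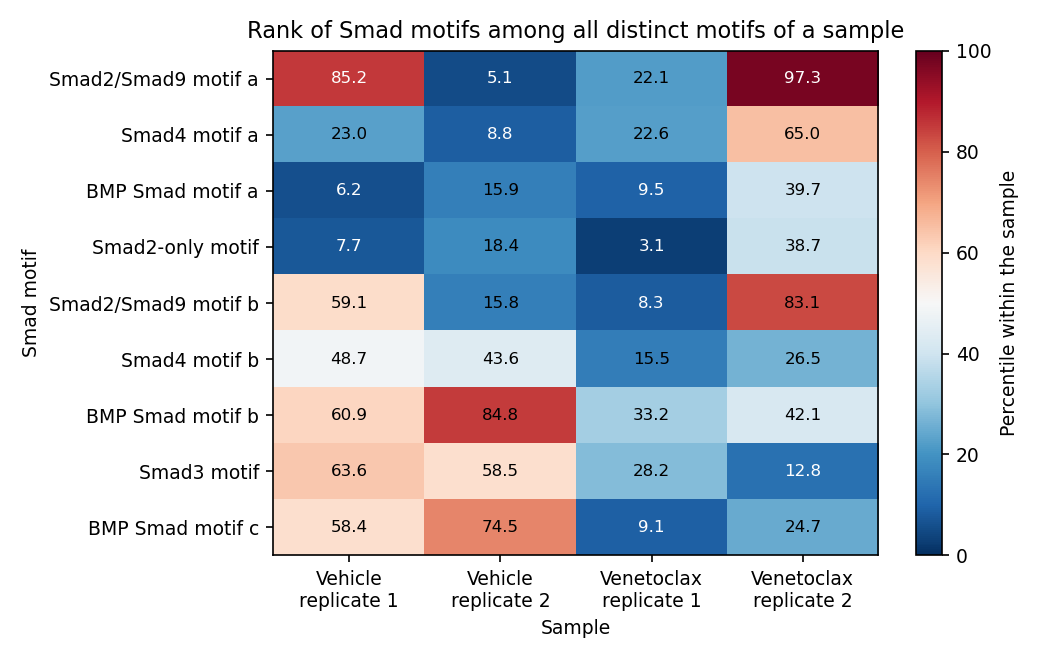
Percentile of each Smad motif among the 976 distinct motifs of a sample (0 lowest, 100 highest), by sample. In the lowest 4 rows both venetoclax samples rank lower than both vehicle samples, and Smad2/Smad9 motif a changes most between replicates.

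Motifs of the same arm of the pathway were not always the most alike over the 4 samples. By Euclidean distance over the 4 scores, the closest of the 36 pairs was BMP Smad motif a and the Smad2-only motif, at 0.47. The next closest were Smad4 motif b with BMP Smad motif c, at 0.78, and Smad4 motif b with the Smad3 motif, at 0.82. BMP Smad motifs a and c, named for the same proteins, were 2.29 apart, and Smad4 motifs a and b 1.57. The median distance was 2.13 between Smad motifs and 2.20 between all distinct motifs, so Smad motifs were about as far from each other as motifs taken from the whole table. These distances describe 4 samples only and carry no test.

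For each of the 9 Smad motifs, the nearest motif of another family, out of a far larger number, was closer than the nearest Smad motif. The Smad3 motif was nearest to Alx1, a homeodomain factor (distance 0.34), and BMP Smad motif c to Zfp263, a zinc finger factor (0.27). BMP Smad motif b was nearest to Tcfap2a, an AP-2 factor (0.30), and Smad4 motif b to the motif shared by Zfp148 and Zfp281 (0.32). Nr3c1, the glucocorticoid receptor, was nearest to both BMP Smad motif a (0.37) and the Smad2-only motif (0.36). Smad4 motif a lay 0.40 from the motif of Prrx2 and Prrxl1, and Smad2/Smad9 motif b 0.49 from Nr2f6, an orphan nuclear receptor. Smad2/Smad9 motif a had the most distant neighbour, a forkhead motif shared by Foxa3, Foxd4 and others, at 0.76.

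The further neighbours were of mixed families too. The Smad3 motif was followed by another motif shared by Foxa3 and other forkhead factors (0.39) and by Prrx1 (0.44), and BMP Smad motif c by Klf12 (0.31) and Meis2 (0.35). BMP Smad motif b was followed by Irf7 (0.32) and another Klf12 motif (0.40), and Smad4 motif b by Alx4 (0.35) and Etv2 (0.37). For BMP Smad motif a these were Rarg (0.43) and Plagl1 (0.44), and for the Smad2-only motif Gfi1b (0.40) and Nkx2-5 (0.52). Smad4 motif a was followed by the motif of Tbp, the TATA-binding protein (0.41), and by Sebox (0.48). Those of Smad2/Smad9 motif b were the motif of the steroid receptors Nr3c2 and Pgr (0.55) and Hes7 (0.61), and those of motif a lay at 0.97 (Nkx6-1) and 0.99 (Zfp652).

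Factors that recruit Smads to DNA went in both directions. The 21 factors listed held 24 distinct motifs, 14 with a positive and 10 with a negative difference. The list median was 0.39, beside -0.23 for all distinct motifs, and was 0.09 without vehicle replicate 1 and 0.65 after centring. By limma, 0 passed the adjusted threshold, and 7 of the 24 were under 0.05 before adjustment, 4 higher and 3 lower with venetoclax, beside 17% of all distinct motifs (5.94% higher and 11.1% lower). Foxh1, the forkhead partner of Smad2 in activin and Nodal signalling, scored 0.07 and 0.45 in the vehicle samples and -0.24 and -0.30 in the venetoclax samples, a difference of -0.53 (limma adjusted p = 0.722, SE 0.68). Of the 24 motifs, 10 were higher and 6 lower without overlap, beside 18% and 30.2% of all distinct motifs. Foxh1 was among the lower ones. Mixl1, a homeodomain factor of the Mix family, had the opposite sign, with -0.42 and -1.02 in the vehicle samples and 0.54 and 0.75 in the venetoclax samples, a difference of 1.37 (limma adjusted p = 0.307, SE 0.69). Runx3, a T cell factor that binds Smad3, had 5 distinct motifs with differences from -1.01 to 1.56, of which 2 changed sign when single samples were left out. All 5 were inferred motifs, with entries ending in I, and the motif at 0.40 had the same scores as the Runx1 motif. Jun, the AP-1 partner of Smad3, differed by 0.68 (SE 0.69). The ends of the list were Foxo1, a Treg factor that binds Smad3 and Smad4, and the AP-1 factor Fosb. Foxo1 scored 2.95 and 2.51 in the vehicle samples and 0.50 and -2.64 in the venetoclax samples. Its difference of -3.80 (SE 0.84, limma adjusted p = 0.0664) was the lowest of all distinct motifs. Fosb scored -1.94 and -1.90 in the vehicle samples and -0.44 and 1.79 in the venetoclax samples (difference 2.59, SE 0.76, limma adjusted p = 0.15).

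The list drawn up for corepressors and antagonists of Smads had 5 distinct motifs, from 5 of 8 factors listed. Whether each of these factors, Zeb1 included, represses Smad targets was not tested. The list median was 0.12, and 0 passed an adjusted p of 0.05 in limma. At an unadjusted p under 0.05 limma gave 1 of the 5, Zeb1, which was higher, beside 17% of all distinct motifs (5.94% higher). The median was 0.07 without vehicle replicate 1, 0.20 without venetoclax replicate 2 and 0.38 after centring. Tgif1, a homeodomain corepressor of Smad2, scored -0.86 and 0.67 in the vehicle samples and 0.20 and -0.80 in the venetoclax samples. Its groups overlapped, and its difference of -0.21 (SE 0.74) turned to 0.06 after centring. Tgif2 differed by -1.01 (SE 0.76) with overlapping groups. Zeb1, a zinc finger E-box repressor, scored -1.07 and -1.58 in the vehicle samples and 0.12 and 1.80 in the venetoclax samples (difference 2.28, SE 0.73, limma adjusted p = 0.151). It was higher without overlap, as were 18% of all distinct motifs.

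The nuclear factor I proteins, whose DNA-binding domain is a structural relative of the Smad MH1 domain, had 4 distinct motifs with a median of 0.24, of which 2 were positive and 2 negative. By limma, 0 passed the adjusted threshold, and only Nfix of these 4 was under 0.05 before adjustment, beside 17% of all distinct motifs. The median was 0.06 without venetoclax replicate 1 and 0.50 after centring. Nfic scored 1.78 and 1.14 in the vehicle samples and 1.13 and -0.67 in the venetoclax samples, a difference of -1.23 (limma adjusted p = 0.408, SE 0.74). Nfix scored -0.44 and -0.62 in the vehicle samples and 0.38 and 1.59 in the venetoclax samples, a difference of 1.51 (limma adjusted p = 0.272, SE 0.71). Both had groups without overlap, in opposite directions. Of the 4 motifs, 2 were higher and 1 was lower without overlap, beside 18% and 30.2% of all distinct motifs.

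Factors that act downstream of BMP signals had 9 distinct motifs from 6 factors listed, 5 with a positive and 4 with a negative difference. Their median of 0.17 was the value of a Nkx2-5 motif. It was 0.43 after centring, and it had the opposite sign without either vehicle replicate, at -0.21 and -0.04, and without venetoclax replicate 2, at -0.09. By limma, 0 passed the adjusted threshold, and 3 of the 9 were under 0.05 before adjustment, all 3 positive, beside 17% of all distinct motifs (5.94% higher). The homeodomain factor Msx1 shared its scores with Isl1 and Isl2. It scored -0.35 and -1.43 in the vehicle samples and 0.59 and 1.73 in the venetoclax samples, a difference of 2.05 (limma adjusted p = 0.174, SE 0.72). Its relative Msx2 scored -0.10 and -0.0044 in the vehicle samples and -0.95 and -1.73 in the venetoclax samples, a difference of -1.29 (limma adjusted p = 0.344, SE 0.69). The motif of Foxp3, the gene that TGF-beta induces in peripheral T cells, scored 0.43 and 0.97 in the vehicle samples and 0.15 and -1.85 in the venetoclax samples. The groups did not overlap, beside 30.2% of all distinct motifs that were lower with venetoclax without overlap. The difference of -1.55 (limma adjusted p = 0.282, SE 0.75) lay between -2.54 and -0.55 when single samples were left out. Foxp3 is a single factor of a list otherwise left out, so its direction does not stand for that list.

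**Figure D4:**
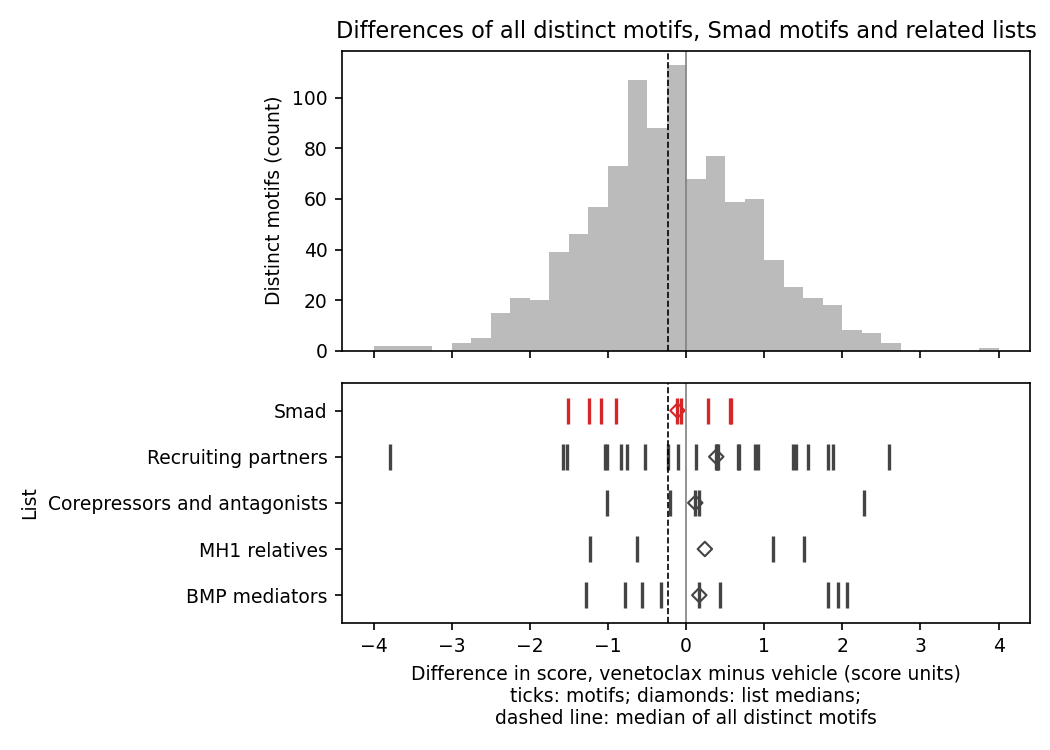
Top, the number of distinct motifs by difference in score, venetoclax minus vehicle (score units). Bottom, each motif of the Smad and related lists as a tick, with diamonds for list medians and a dashed line at the median of all distinct motifs, -0.23. The Smad motifs run from -1.51 to 0.58, inside the spread of the recruiting partners.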

How the data were processed

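ATAC-seq was done on Tregs of mouse spleen, 2 samples with vehicle and 2 with venetoclax. Bowtie2, Picard, MACS2 and mm10 are named, without versions or roles, in the submitters' processing notes. The authors deposited a table with a deviation score of each motif in each sample, made with chromVAR as its file name says. It also lists the authors' group means, differences and ranks. Not given in the sources used here are the read shifting, the peak set, the motif collection and the kind of score (z-score or deviation). A score is relative to background peaks and to the samples scored together. Of 12 sample columns, 8 match none of the samples in the labels and were left unused. Depth is unknown, so no counting interval is given.

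Scores were fitted as deposited over all 1346 entries with limma 3.58.1 in R 4.3.3 (lmFit, eBayes, two-sided, 21.0 degrees of freedom, of which 2 from the samples), with Benjamini-Hochberg adjustment and a threshold of 0.05. Differences are venetoclax minus vehicle with the moderated SE and 95% interval. The deposited differences equalled those computed here within 9.99e-15. The step was tested on simulated scores. Entries with the same 4 scores were counted once. All 6 Smad symbols matched RefSeq names of GRCm38.p6, and 2 listed factors were matched under another spelling (Tcfe3 for Tfe3, Nkx25 for Nkx2-5).

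The Smad motifs and the lists were chosen with earlier results of these data known. The text names every Smad motif, the ends of each related list, 8 fixed factors (Foxh1, Tgif1, Runx3, Foxp3, Foxo1, Zeb1, Jun and Nfic) and, per Smad motif, the 3 nearest other motifs by Euclidean distance. Mixl1, the Nkx2-5 motifs and the ranks within a sample were added after their values were seen. Gaps between motifs within a sample were not among the planned results, and not all that were computed are printed. A list of T cell factors holds a motif that is not reported here, so that list is left out, except for Foxp3. Alternatives were a replicate block, each sample left out, 3 scalings, other variance models, another threshold, and repeated entries counted once or 1 value per symbol.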

Additional observations from a re-analysis of the deposited data

How the results depend on the processing

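No Smad motif passed an adjusted p of 0.05 in limma under any alternative run. Over all 1346 entries, repeats included, the count of 0 became 74 with a trended and robust variance (48 lower) and 6 at an adjusted p of 0.1. It ranged from 0 to 337 with a sample left out, with 337 without venetoclax replicate 1. That fit assumes that the lone venetoclax sample varied like the vehicle samples. The Smad median difference, -0.11, moved to -0.64 with 1 value per symbol, beside -0.26 over all symbols. Smad1 and Smad5 hold the same 3 motifs, so both entered that median with the same value, -0.77. Without single samples the Smad median lay between -0.82 and 0.50. The sign turned under centring, division by the SD and quantile normalization for the Smad2-only motif (0.20, 0.14 and 0.084) and for Smad2/Smad9 motif b (0.15, 0.15 and 0.14). Without single samples, differences ran from -0.63 to 0.50 for the Smad2-only motif, from -1.02 to 0.80 for Smad2/Smad9 motif b, from -0.63 to 1.79 for Smad2/Smad9 motif a and from -0.093 to 0.65 for BMP Smad motif a. The differences of the Smad3 motif, BMP Smad motifs b and c and both Smad4 motifs kept their sign under every alternative run. Among the related factors named, sign changes without single samples were found for Tgif1 (-0.97 to 0.56), for Runx3 motifs at 0.40 (-0.07 without vehicle replicate 1) and -0.75 (0.0087 without vehicle replicate 2 and 0.19 without venetoclax replicate 2), and for Nkx2-5 motifs at 0.17 (-0.16 without vehicle replicate 2) and -0.32 (0.28 without venetoclax replicate 1).

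The labels share replicate numbers between groups without saying that a number pairs samples. Same-numbered samples had only a weak tendency to deviate in opposite directions (r = -0.27 across entries and -0.22 across distinct motifs, which are not independent). Counts here are over all entries, repeats included, and over distinct Smad motifs. With the replicate block limma called 0 entries and 0 Smad motifs. At an unadjusted p under 0.05 it gave 100 entries and 0 Smad motifs, against 246 entries and 1 Smad motif without the block. With crossed numbers, an alternative chosen after seeing the data, it called 0 entries and 0 Smad motifs. At an unadjusted p under 0.05 the crossed fit gave 258 entries and 1 Smad motif. The block changed no call at the adjusted threshold. The number of samples and the unknown depth limit these results. The median distance from centre to end of the 95% intervals was 1.45 score units over the Smad motifs.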
